A study of Mus musculus with 15 samples.

Results

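H3K27Me3, the trimethylation of lysine 27 on histone H3, was compared between islets of mice given a high-fat diet with O304 (HFD-O304) and islets of mice on regular diet (RD). The comparison drew on 4 of the 15 samples of the series, 2 per group, and on 2 of its 6 deposited lists of broad peaks. Peaks on chromosomes 1 to 19 (14286 in RD, 20289 in HFD-O304) were joined into 1 region wherever they overlapped by 1 bp or more, which gave 23071 regions. A region was called gained when it held only HFD-O304 peaks, lost when it held only RD peaks and shared when it held both.

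All mice were CBA males. Diets began at 10 weeks of age and islets were isolated at 20 weeks. O304, described by the authors as an activator of AMPK, was mixed into the high-fat diet at 0.8 mg per g. About 600 hand-picked islets were pooled for each immunoprecipitation, so the lists describe mixed islet cells and not sorted β-cells. The groups differ in both dietary fat and O304, and these cannot be told apart here. The authors pooled the 2 replicates' alignments for peak calling. Each group therefore has 1 list, no spread between replicates can be measured and no difference was tested.

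H3K27Me3 is written by Polycomb repressive complex 2, whose catalytic subunit is EZH2 or EZH1, and it is read by Polycomb repressive complex 1. The mark settles mainly on CpG-rich promoters of genes that are silent in a given cell, above all the transcription factors and signals of other lineages. In islets, Polycomb is known to keep developmental genes silent and to limit the expression of genes that mature β-cells normally exclude.

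Stretches from gained and lost promoters are shown first, in GRCm38 and on the plus strand, with every CpG in capitals because CpG-rich DNA is where Polycomb is usually found. Bases of annotated untranslated exons were left out. Fam107b (chr2:3614702-3615001) and Tcerg1l (chr7:138397104-138397403) were gained, as was Nkx6-1 (chr5:101663888-101664169), a β-cell transcription factor with a weak call that was added after its values were seen. The Nkx6-1 stretch lies inside the gene, more than 500 bp from a start site, and not upstream of it. Glp1r (chr17:30901616-30901816) was lost, as was 1 of the regions at start sites of Glo1 (chr17:30612206-30612505).
Fam107b: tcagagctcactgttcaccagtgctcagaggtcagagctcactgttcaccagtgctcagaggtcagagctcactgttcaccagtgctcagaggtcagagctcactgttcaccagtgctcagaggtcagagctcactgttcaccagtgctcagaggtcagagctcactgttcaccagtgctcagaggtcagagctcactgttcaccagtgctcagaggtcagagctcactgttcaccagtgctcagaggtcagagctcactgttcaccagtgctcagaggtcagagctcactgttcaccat
Tcerg1l: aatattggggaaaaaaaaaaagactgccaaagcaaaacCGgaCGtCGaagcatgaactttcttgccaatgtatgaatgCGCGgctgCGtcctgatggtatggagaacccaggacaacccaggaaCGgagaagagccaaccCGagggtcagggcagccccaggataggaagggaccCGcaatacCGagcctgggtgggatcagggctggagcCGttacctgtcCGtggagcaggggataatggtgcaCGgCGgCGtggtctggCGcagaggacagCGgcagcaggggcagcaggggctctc
Nkx6-1: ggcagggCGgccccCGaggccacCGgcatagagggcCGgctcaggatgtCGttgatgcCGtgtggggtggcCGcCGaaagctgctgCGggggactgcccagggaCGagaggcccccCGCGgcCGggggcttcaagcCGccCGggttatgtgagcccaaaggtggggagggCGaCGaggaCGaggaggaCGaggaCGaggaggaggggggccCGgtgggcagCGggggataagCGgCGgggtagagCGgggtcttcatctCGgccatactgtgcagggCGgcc
Glp1r: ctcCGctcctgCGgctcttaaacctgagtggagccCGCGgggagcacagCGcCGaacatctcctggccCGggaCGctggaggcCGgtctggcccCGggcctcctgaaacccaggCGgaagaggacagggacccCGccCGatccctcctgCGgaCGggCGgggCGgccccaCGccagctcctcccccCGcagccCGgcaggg
Glo1: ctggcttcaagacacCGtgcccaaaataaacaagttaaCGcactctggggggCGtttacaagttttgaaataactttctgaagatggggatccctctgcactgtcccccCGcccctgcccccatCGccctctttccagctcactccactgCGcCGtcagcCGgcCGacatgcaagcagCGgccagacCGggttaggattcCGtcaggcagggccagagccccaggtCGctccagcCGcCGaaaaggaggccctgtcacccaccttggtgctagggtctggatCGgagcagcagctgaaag
The Fam107b stretch held 0 CpG and repeats 1 short unit throughout, although none of it is soft-masked in the reference. The Tcerg1l stretch held 17 CpG, Nkx6-1 held 27 in 282 bases, Glp1r held 20 in 201 bases and Glo1 held 16.

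Among the gained regions of highest −log10 q in any context was 1 inside Cd163l1, at chr7:140221224-140221444, with a level of 16.2 in HFD-O304 in the unit defined in the next paragraph. It is printed, with CpG in capitals, to show what a strong call away from promoters can consist of.
Gained, Cd163l1: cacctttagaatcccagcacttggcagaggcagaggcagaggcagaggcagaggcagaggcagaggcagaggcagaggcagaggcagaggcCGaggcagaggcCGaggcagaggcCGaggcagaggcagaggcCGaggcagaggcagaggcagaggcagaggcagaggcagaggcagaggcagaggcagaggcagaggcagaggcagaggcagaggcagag
This stretch of 221 bases held 4 CpG, and 90% of it is soft-masked as repeat.

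Levels are given below as pileup over background, that is the mean number of kept fragments over a base of the peak divided by the number expected if all kept fragments were spread evenly. The RD list rested on 74870300 kept fragments and the HFD-O304 list on 57324419, after 45.7% and 56.9% of fragments had been set aside as duplicates. The lowest level called was 2.74 in RD and 2.97 in HFD-O304, so the deeper RD list could call weaker peaks. Even so, the HFD-O304 list covered 20.5 Mb of chromosomes 1 to 19 and the RD list 13.0 Mb. H3K27Ac, acetylation of the same lysine and a mark of active promoters, was called at the promoter of 10084 of all 20720 protein-coding genes in RD and 11197 in HFD-O304. It was called at 11 of 13 β-cell transcription factors in RD and 12 in HFD-O304, and at 0 of 8 immune markers in either. Among 8 islet hormone genes, however, it was called at the promoter of only 2 in RD and 1 in HFD-O304.

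Of the 23071 regions 9229 were gained (40.0%, 95% Wilson interval 39.4 to 40.6), 2916 were lost (12.6%, 12.2 to 13.1) and 10926 were shared. These intervals cover counting error over regions only. Gained regions outnumbered lost ones on each of the 19 chromosomes, by 2.11 to 4.27 times. The HFD-O304 list held more peaks, so these are not 19 independent observations. Because the lowest level was higher in the HFD-O304 list, all gained regions had to lie above the lowest level of the RD list. Of the lost regions, 53.9% lay below the lowest level of the HFD-O304 list and could not have been called there at their RD level. Only 283 gained (3.07%) and 23 lost regions (0.789%) stood 1.5-fold or more above the lowest level of the other list, so most calls on either side were close to the limit. The median level was 3.23 for gained and 2.94 for lost regions.

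The number of gains rested in part on the longer HFD-O304 list. With its 14286 strongest peaks, 4669 regions were gained and 4333 lost. The gene counts then turned, with 410 genes gained and 438 lost at promoters. With a common lowest level of 2.97 in both lists, 11591 regions were gained and 1343 lost. That is the lowest level of the HFD-O304 list, so this setting removed RD peaks only. Here and below it could only add gains, take away losses and lower RD coverage, and its direction was fixed in advance.

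Among 20720 protein-coding genes, 718 gained H3K27Me3 within 1000 bp of a start site in the HFD-O304 list (3.47%), 254 lost it (1.23%) and 1386 had a shared region there (6.69%). A further 27 genes had separate gained and lost regions and 18335 had none. These percentages are the background for the gene lists below. A promoter region with less than 50% soft-masked bases had a median length of 633.5 bp when gained (776 regions), 380.0 bp when lost (273) and 1656 bp when shared (1349). A shared region spans the joined peaks of both lists, which adds to its length.

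Promoters of Hox genes and of lineage transcription factors were often marked. In the plot by gene list, Hox genes and lineage transcription factors stand far above the 2385 of all 20720 genes (11.5%) with a region in either list. Regions of both lists make up most of the bars of the Hox, neural, mesoderm and gut lists. The same holds for the β-cell disallowed and β-cell stress lists, and not for the mesenchymal, β-cell transcription factor or β-cell function lists.

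**Figure D1:**
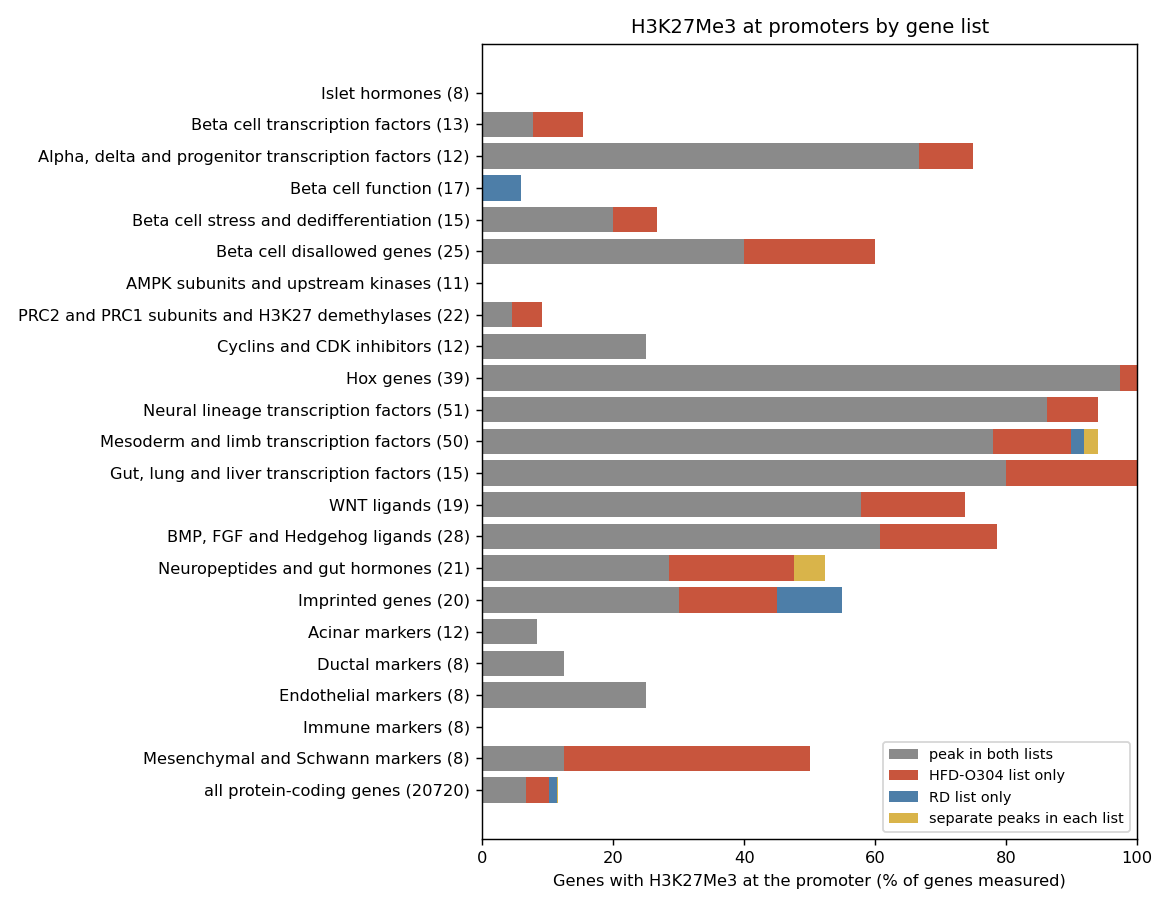
Percentage of the measured genes of each list (number in brackets) with an H3K27Me3 region within 1000 bp of a start site, split into regions of both lists, of HFD-O304 only, of RD only, or separate regions of each. Hox genes reach 100% and islet hormones and AMPK subunits 0%, against 11.5% of all protein-coding genes.

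Hox genes, which set position along the body axis, were marked at all 39 promoters, 38 in both lists and 1 (Hoxa4) in HFD-O304 only. At the 38 shared promoters the level ran from 2.86 to 3.62 in RD (median 3.13) and from 3.18 to 4.40 in HFD-O304 (median 3.85). The HFD-O304 level was the higher in 36 and the RD level in 2, Hoxd4 among them (3.34 in RD, 3.22 in HFD-O304). Hoxd13, a limb and digit gene at the end of its cluster, stood at 3.17 in RD and 4.40 in HFD-O304, a log2 ratio of 0.47. Hoxa13 stood at 2.86 and 4.03, and Hoxd9 at 3.62 and 4.38. Hoxa4 (chr6:52189271-52192439) was covered over 3169 bp at a level of 3.74 in HFD-O304 and had no RD peak. None of the Hox promoters passed 1.5-fold, and the ranges of the groups overlap. With lists of equal size 2 Hox promoters were lost and 1 gained, and with a common lowest level 10 were gained and 0 lost. Neighbouring genes such as Hoxb5 and Hoxb6 lie in 1 region and share their values.

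**Figure D2:**
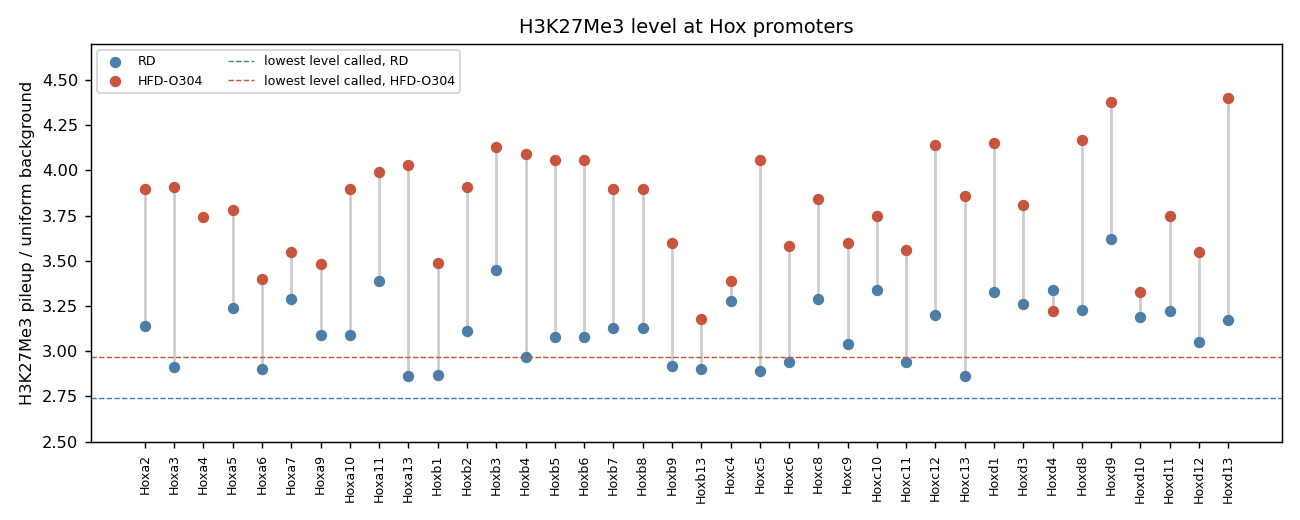
H3K27Me3 level (pileup over uniform background) at 38 of the 39 Hox promoters in RD and HFD-O304, 1 merged list each, with dashed lines at the lowest level called in each list. HFD-O304 lies above RD at 36 promoters and below it at Hoxd4, and Hoxa4 has no RD value.

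A log2 ratio has to be read against the shift of the whole list. Over the 10926 shared regions the median log2 ratio of HFD-O304 over RD was 0.18 (1.14-fold), and over the 1386 genes with a shared promoter it was 0.22, with the HFD-O304 level higher in 1304. The Hox median was 0.28, neural transcription factors 0.26, mesoderm and limb factors 0.26 and WNT ligands 0.12. These list medians lie on both sides of the median over all genes with a shared promoter.

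The width of the marked stretches differed as well as the level. Width and level cannot be ranked, because levels are taken only inside called peaks and so never fall below the lowest level called. In the Hoxa cluster (chr6:52155590-52260880) peaks covered 22.1 kb in RD and 52.2 kb in HFD-O304. In the Hoxb cluster (chr11:96194316-96368256) they covered 19.6 kb and 57.7 kb. The Hoxc cluster (chr15:102921103-103036852) had 12.8 kb and 50.4 kb, and the Hoxd cluster (chr2:74668310-74765142) had 21.3 kb and 47.8 kb. The 4 ratios, 2.24 to 3.92, exceeded the 1.57 of the whole lists. With lists of equal size they were 1.95 to 3.36, against 1.26 over all covered bases, and with a common lowest level 2.56 to 6.95, against 1.96. Mice on the high-fat diet without O304 (HFD) covered 49.8, 49.5, 44 and 44.1 kb, from 54166902 kept fragments. H3K27Ac peaks covered 0 bases of the 4 clusters in each diet.

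**Figure D3:**
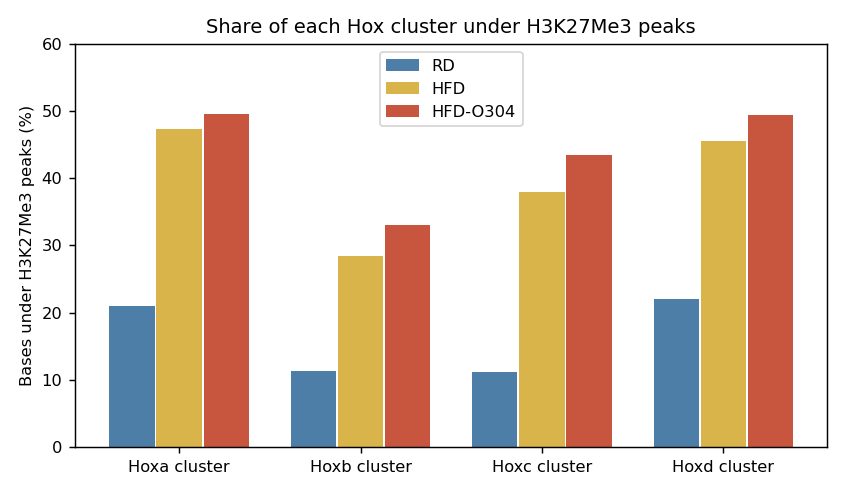
Percentage of the bases of each Hox cluster, from its first to its last gene, that H3K27Me3 peaks covered in each of the diets RD, HFD and HFD-O304 (1 merged list per bar). RD covers 11.1% to 22.0% and HFD-O304 33.1% to 49.6%, with HFD at 28.5% to 47.3%.

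Wider peaks were also seen at shared promoters in general. Over the 1349 shared promoter regions with less than 50% soft-masked bases, RD peaks covered a median of 903.0 bp and HFD-O304 peaks 1502 bp, and HFD-O304 was the wider in 80.4%. Over all shared regions the medians were 645.0 and 817.0 bp, and HFD-O304 was the wider in 67.3%. Gata2, a blood and neural factor, went from 282 bp at a level of 2.92 to 5289 bp at 3.64. Alx4, a craniofacial and limb homeobox gene, went from 970 bp to 9793 bp while its level was 3.47 in RD and 3.45 in HFD-O304. The RD peak of Gata2 lay near the lowest level called (2.74), and the part of that limit in the widths was not tested beyond the lists of equal size and of a common lowest level, where the median widths of all shared promoters were 975.0 and 1674 bp and 1027 and 1728 bp.

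Neural lineage transcription factors were marked at 48 of 51 promoters, 44 shared, 4 gained and 0 lost. The gained genes were Lhx5 (level 3.86 in HFD-O304), Pax7 (3.59), Bhlhe23 (3.45) and En2 (3.41). The highest shared levels in HFD-O304 included those of Lhx2 (4.38 in RD, 4.45 in HFD-O304) and Phox2a (3.44 and 4.35). HFD-O304 was higher at all 44 shared promoters, and the level ranges were 2.74 to 4.38 in RD and 3.05 to 4.66 in HFD-O304. With lists of equal size 1 of them was lost, and with a common lowest level 11 genes were gained and 0 lost.

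Mesoderm and limb transcription factors were marked at 47 of 50 promoters, with 39 shared, 6 gained, 1 lost and 1 (Hand1) with separate gained and lost regions. Hand2, a heart and limb factor, was gained at 3.60, Nkx2-5, a cardiac regulator, at 3.37 and Foxf1, a factor of gut mesenchyme, at 3.21. The muscle master regulator Myod1 was gained over 366 bp at 3.08. The lost promoter was that of Lmx1b, a dorsal limb factor, at 2.78 in RD, below the lowest level of the HFD-O304 list. Foxc1 had the highest shared value, 3.51 in RD and 4.66 in HFD-O304. Tcf21, a factor of visceral mesoderm, was among the 2 with the higher level in RD (3.81 and 3.56). With lists of equal size 2 of these genes were gained (Hand2 and Nkx2-5) and 3 lost, and with a common lowest level 17 were gained and 0 lost.

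All 15 gut, lung and liver factors were marked, 12 shared and 3 gained. Foxe1, a thyroid factor, had the largest level in HFD-O304 (3.27 in RD, 4.82 in HFD-O304). The gained genes were Sox18 (3.55), Cdx1 (3.22) and Foxj1 (3.13), the last absent from the gains with lists of equal size. Cdx2, an intestinal master regulator, stood at 3.50 in RD and 3.39 in HFD-O304 while its covered length went from 1362 to 6027 bp.

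Secreted signals of the embryo were also marked, with gains and no losses. WNT ligands were marked at 14 of 19 promoters, 11 shared and 3 gained, namely Wnt3 (3.44 over 3734 bp), Wnt7b (3.33) and Wnt2 (3.12). BMP, FGF and Hedgehog ligands were marked at 22 of 28, with 17 shared and 5 gained. Fgf10, a mesenchymal signal in pancreas development, was gained at 3.52, Fgf17 at 3.48, Bmp6 at 3.44, Fgf3 at 3.25 and Fgf18 at 3.08. No member of these lists was lost, although 1 of each was with lists of equal size, where Wnt2 and Fgf18 were no longer gained. With a common lowest level 6 WNT ligands and 9 of the other ligands were gained.

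β-cell disallowed genes are kept low in β-cells although most tissues express them. They were marked at 15 of 25 promoters, 10 shared, 5 gained and 0 lost, so 20.0% were gained against 3.47% of all genes. That contrast follows from how many were marked, 60% against 11.5% of all genes. Among marked genes 5 of 15 were gained, close to the 718 of 2385 over all genes. Ldha, lactate dehydrogenase A, stood at 3.20 in RD and 3.98 in HFD-O304. Hk1, a hexokinase of low Km, stood at 3.07 and 3.9, and Slc16a1, which encodes the lactate and pyruvate carrier MCT1, at 2.90 and 3.32. Pdgfra had the highest level, 3.35 and 4.03. The gained genes were Acot7 (3.57), Igf1 (3.54), Zfp36l1 (3.47), Lmo4 (3.26) and Mgst1 (3.14), and 4 of the 5 had an HFD peak as well. At equal list size 4 were gained, without Mgst1, and 3 lost, while at a common lowest level 7 were gained and 0 lost. In bulk islets a lower level in a cell type and fewer cells of that type cannot be told apart.

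Few genes of the β-cell itself carried the mark, but with 11.5% of all genes marked, lists this short are near the background. None of the 8 islet hormone genes, including Ins1, Ins2, Gcg and Sst, and none of the 11 genes for AMPK subunits and their upstream kinases had a region in either list. Of 13 β-cell transcription factors 11 had none and 2 were marked (15.4%). Nkx6-1, required for β-cell identity, had a gained peak of 282 bp at 3.02, close to the lowest level of the HFD-O304 list (2.97). H3K27Ac was called at its promoter as well, at 4.06 in RD and 4.36 in HFD-O304. Its relative Nkx6-2 was shared, at 2.81 in RD and 3.39 in HFD-O304. Alpha, delta and progenitor factors were marked at 9 of 12 promoters, among them Onecut1 (3.51 and 3.66), Sox9 (3.01 and 3.52) and Hhex (3.04 and 3.49), the last a delta cell factor. Ptf1a, an acinar master regulator, was gained at 3.14. The Nkx6-1 and Ptf1a gains were absent with lists of equal size, and that of Nkx6-1 also with a promoter window of 500 bp.

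Of 17 genes of β-cell function, Glp1r, the receptor for the incretin GLP-1, was the one marked gene. It was lost: a peak of 2035 bp (chr17:30900748-30902782) at a level of 3.71 in RD had no counterpart in HFD-O304. The HFD list had a peak there at 3.41. H3K27Ac was called at the promoter at 3.07 in RD and 3.27 in HFD-O304, so the lost H3K27Me3 peak lay at an acetylated promoter. Many more losses lay around it. Over the 725.3 kb from Btbd9 to Glp1r, 41 regions were lost, 17 gained and 16 shared. RD had 57 H3K27Me3 peaks there, HFD 19 and HFD-O304 34. H3K27Ac peaks of the same stretch covered 25.3% of bases in RD, 31.2% in HFD-O304 and 34.0% in HFD. H3K27Me3 peaks covered 6.76%, 2.33% and 3.24% in RD, HFD and HFD-O304, in that order. The part of this stretch in the loss at Glp1r was not tested, and the copy number of the stretch in CBA mice, which the reference strain does not give, was not tested either.

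Glo1, which encodes glyoxalase 1, lies in the same stretch. It lost a region of 447 bp at 3.53 (chr17:30612132-30612578), yet another region at its promoter was shared at 3.28 in RD and 3.68 in HFD-O304. Glo1 therefore counts among the genes with a shared promoter.

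Of the genes of β-cell stress and dedifferentiation 4 of 15 were marked. Aldh1a3, a marker of dedifferentiating β-cells, had a shared region at chr7:66426570-66427942 with nearly equal levels, 2.93 in RD and 3.03 in HFD-O304, over 1030 and 1069 bp. Vim, the intermediate filament of mesenchyme, stood at 3.18 and 4.02, and Atf3, a stress-induced factor, at 3.12 and 3.41. Cck, a gut hormone that islets can express, was gained over 3067 bp at 3.81, with an HFD peak at 3.38 and no H3K27Ac peak in RD or HFD-O304.

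Neuropeptides and gut hormones, of which Cck is also a member, were marked at 11 of 21 promoters, 6 shared, 4 gained and 1 with separate gained and lost regions (Cartpt, 3.37 in RD and 3.49 in HFD-O304). Npy, which islets express in development, stood at 3.49 and 4.40. The other gains were Nmu (3.47), Pdyn (3.12) and Ucn (2.97, the lowest level of the list), and with lists of equal size Pdyn and Ucn were no longer gained and 1 gene was lost.

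Of the 22 genes of Polycomb itself and of the demethylases 2 were marked (9.09%, near the 11.5% of all genes). Cbx8, a reader subunit of Polycomb repressive complex 1, was covered over 4454 bp at 3.22 in RD and 9667 bp at 3.72 in HFD-O304. Phf19, an accessory subunit of Polycomb repressive complex 2, was gained at 3.21, a call that was absent with lists of equal size. Among 12 cyclins and CDK inhibitors 3 were shared. Cdkn2a, a cell cycle inhibitor that restrains β-cell replication, stood at 3.14 and 3.72. Cdkn1c stood at 2.85 and 3.66, and Cdk6 at 3.26 and 3.83.

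Imprinted genes had both gains and losses. Mest was lost at 3.24 and Kcnq1 at 2.85, the latter below the lowest level of the HFD-O304 list, and both had HFD peaks (3.96 and 3.39). Grb10 (3.35), Gnas (3.24) and Dlk1 (3.01) were gained, and 6 of 20 genes were shared, Igf2 among them (2.91 in RD and 3.49 in HFD-O304). With lists of equal size 2 were gained, Dlk1 no longer among them, and 2 lost, and with a common lowest level 8 were gained and 1 lost.

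Markers of other cells that picked islets can hold were looked at in the same way. Of 8 mesenchymal and Schwann markers 3 were gained, namely Col1a1 (3.75 over 345 bp), Col1a2 (3.44) and Acta2 (3.29), and Sox10 was shared (2.91 and 3.34). Of these 8 genes 1 had an H3K27Ac peak in either diet. Endothelial Kdr (3.28 and 3.78) and Flt1 (3.46 and 3.79) were shared, ductal Sox9 and acinar Rbpjl (2.86 and 3.14) were shared, and none of the 8 immune markers was marked. H3K27Ac was called at 2 of 8 endothelial markers in RD and 0 in HFD-O304, at 2 and 1 of 12 acinar markers and at 3 and 5 of 8 ductal markers. Over all 20720 genes it was called at 10084 and 11197, and the ductal counts lie around that share. The part of cell composition in the H3K27Me3 differences was not tested.

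Counts for gene families, some members of which are also in the lists above, can be set beside the 3.47% gained and 1.23% lost of all genes. Of 92 potassium channel genes 15 were gained (16.3%), 2 lost and 22 shared. As 39 of them were marked (42.4%, against 11.5% of all genes), the gained share has to be read against 718 gained of 2385 marked genes. Of 358 solute carriers 16 were gained (4.47%, near the share of all genes), 8 lost and 36 shared. Olfactory receptors, silent in islets but poor in CpG, had 11 gained (0.976%), 6 lost and 2 shared among 1127. All 6 Dlx and all 6 Irx genes were shared. Of 92 ribosomal protein genes 1 was lost and none gained.

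The strongest gained and lost promoters belonged to genes of many kinds. By −log10 q, the 10 strongest gained promoter regions were those of Fam107b (4.54), Tcerg1l (4.2), Gm11555 (4.15), Slc17a7 (4.11), Zfp980 (4.12), Lpar3 (4.02), Tfap2a (4.03), Gm13698 (4.03), Smim17 (4.03) and Gm47969 (4.03). Slc17a7 encodes the vesicular glutamate transporter VGLUT1, Lpar3 a receptor for lysophosphatidic acid and Tfap2a a neural crest factor. Of these 10, 6 overlapped an HFD peak. The Fam107b region met the promoter window only at its edge. Slc17a7 also had a separate lost region at 2.76, and Tfap2a and Zfp980 also had shared regions at other start sites (3.41 in RD and 4.04 in HFD-O304 for Tfap2a).

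Among lost promoter regions the strongest after Eif3j2 (3.83), Glp1r and Glo1 were Slc1a1 (3.45), which encodes a glutamate transporter, Acss1 (3.42), a mitochondrial acetyl-CoA synthetase, and Elovl4 (3.39), an elongase of very long fatty acids. Gm2897 (3.45), the histone genes Hist1h2ap and Hist1h2br (3.35), Zfp772 (3.34) and Arhgap12 (3.32) completed the 10. At non-repeat promoters no lost region, and 5 of the 776 gained ones, reached 1.5 times the lowest level of the other list.

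Few shared regions differed in level by more than 1.5-fold. HFD-O304 was higher past this limit in 199 of 10926 regions (1.82%) and lower in 2 (0.0183%). At least 50% of bases were soft-masked in 75.4% of the 199, against 67.7% of all shared regions. After centring on the median ratio, 32 were higher and 18 lower. The 9 higher promoter regions were those of Lhfpl2 (2.90 in RD, 4.79 in HFD-O304), Slc25a21 (2.74 and 4.34), Gm4301 (5.29 and 8.39), Rspo2 (3.28 and 5.2), Trabd2b (2.86 and 4.42), Gm21188 with Gm36079 (4.38 and 6.73), Slc5a7 (2.99 and 4.60), Crim1 (2.84 and 4.35) and Tead2 (3 and 4.55). Rspo2 encodes a WNT agonist, Slc5a7 the choline transporter of cholinergic neurons and Tead2 a Hippo pathway factor. The lower regions lay nearest Dclk2 (9.13 and 5.84, 345 bp) and 1700010B08Rik (5.30 and 3.27, 331 bp).

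**Figure D4:**
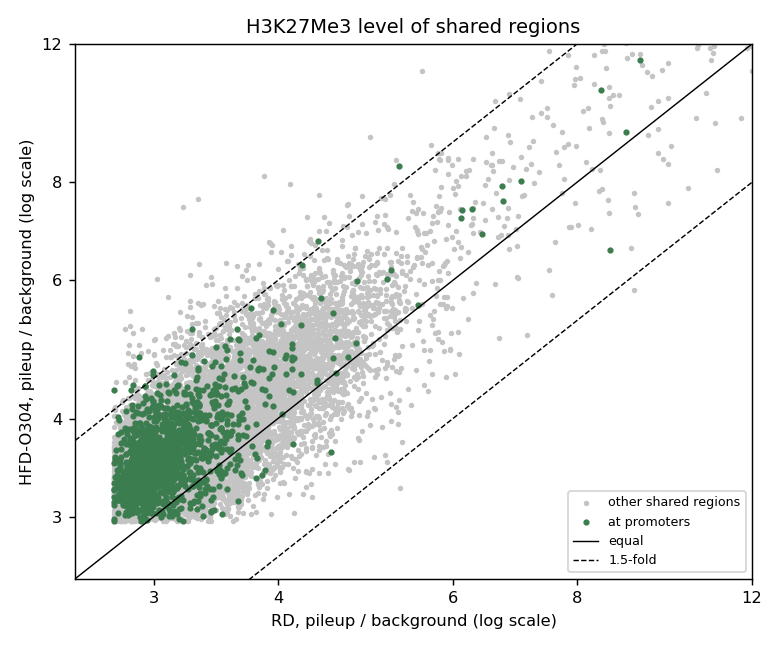
H3K27Me3 level of shared regions in RD (x axis) and HFD-O304 (y axis), pileup over background on log scales, with promoter regions in green, a solid line at equality and dashed lines at 1.5-fold. Most points lie above equality (87.1% of regions) and below 1.5-fold, and 183 of 10926 regions beyond a level of 12 are outside the axes.

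Among 168 shared promoter regions with a −log10 q of at least 5 in both lists and less than 50% soft-masked bases, HFD-O304 was higher in 166. Klf14, an imprinted Krüppel-like factor, had a log2 ratio of 0.57 (4.23 in RD, 6.27 in HFD-O304), and its covered length was 1117 and 1948 bp. Rbm46, a germline RNA-binding protein, stood at 3.58 and 5.06, BC107364 at 3.64 and 5.2 and 4930447C04Rik at 3.46 and 4.93. At the other end Gm45844 stood at 8.64 in RD and 6.55 in HFD-O304, a log2 ratio of -0.40. Itln1, Ralyl, Gm4981, Lhx2 and Zfp984 had ratios of HFD-O304 over RD between 0.999 and 1.02. Genes named Gm with near-identical copies, and Zfp980 and Zfp984 in a repeated gene cluster, are uncertain because reads can be split between copies.

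The longest regions were shared. A region of 95325 bp at chr8:20318186-20413510 stood at 7.03 in RD and 8.02 in HFD-O304, and a second at chr8:20569103-20656402 at 6.72 and 7.91. A region of 87243 bp at chr8:123537311-123624553, with 79.7% soft-masked bases, stood at 12.6 and 22.9. The Sfi1 region (chr11:3125780-3200058) stood at 12.3 and 12.8, and the last (chr8:20493391-20554294) at 7.23 and 9.03. Of the 340 regions of 5 kb or more, all were shared. A region spans all peaks joined in it, and a long peak more easily meets one of the other list. Long regions therefore tend to be shared by the way they were built.

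Gains were not spread evenly. Between 3 and 8 Mb of chromosome 14, 262 regions were gained, 27 lost and 94 shared. HFD-O304 had 356 H3K27Me3 peaks there, RD 121 and HFD 133, while H3K27Ac had 37, 38 and 45. Copy number in CBA mice was not tested here either. Without this stretch and the one from Btbd9 to Glp1r, 8950 regions were gained and 2848 lost. Within 10000 bp of a shared region lay 30.4% of gained (29.5 to 31.3) and 24.2% of lost regions (22.7 to 25.8). No share expected from placement was computed, so these shares do not show clustering, and the intervals treat neighbouring regions as independent.

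The classes differed in where they lay and in base content. Promoters held 8.84% of gained regions (8.28 to 9.44), 9.64% of lost (8.62 to 10.8) and 12.6% of shared regions (12 to 13.3). Between genes lay 65.7%, 58.8% and 63.4%. At least 50% of bases were soft-masked in 64.6% of gained, 61.6% of lost and 67.7% of shared regions, compared with 4.90%, 2.85% and 2.39% of those at promoters. Non-repeat promoter regions had a median GC content of 61.1% when gained, 64.9% when lost and 60.5% when shared. Their median ratio of observed to expected CpG was 0.570, 0.697 and 0.629, and the ratio was at least 0.6 in 45.0%, 65.6% and 58.7%. Windows of 500 bp either side of 1 start site per gene had medians of 55.4% GC and 0.578.

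The other lists of the series, which did not enter the classes, differed between gained and lost promoters. The HFD list of H3K27Me3 overlapped 56.2% of the gained (52.7 to 59.6), 38.5% of the lost (32.9 to 44.4) and 94.1% of the shared non-repeat promoter regions. The RD list of H3K27Ac overlapped 6.57% of gained (5.03 to 8.54), 46.2% of lost (40.3 to 52.1) and 18.8% of shared promoter regions. Of these lost regions 62.6% lay below the lowest level of the HFD-O304 list and could not have been called there at their RD level. In the HFD-O304 list of H3K27Ac these were 14.7%, 53.8% and 30.2%. The intervals of gained and lost regions did not overlap in either diet. Of the genes with no H3K27Me3 region, 52.1% had an H3K27Ac peak in RD and 56.8% in HFD-O304. For genes with a lost promoter the shares were 57.1% and 65.4%, and for genes with a gained one 11.0% and 21%.

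**Figure D5:**
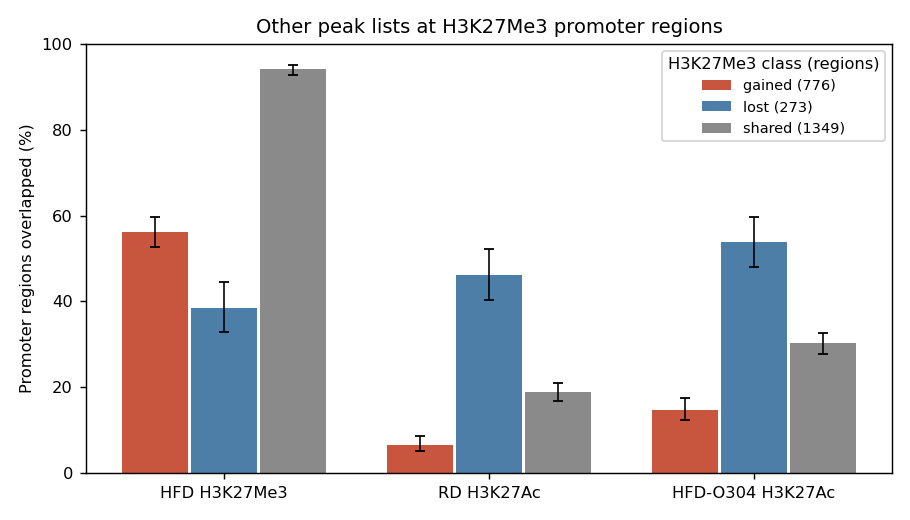
Percentage of gained, lost and shared H3K27Me3 promoter regions with less than 50% soft-masked bases that overlap a peak of the HFD H3K27Me3, RD H3K27Ac or HFD-O304 H3K27Ac list. Bars are shares of regions and error bars 95% Wilson intervals (counting error only). H3K27Ac overlaps 46.2% of lost and 6.57% of gained regions in RD.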

How the data were processed

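Per the study's methods, paired reads were aligned to GRCm38 (Ensembl release 96) with bowtie2, replicates were merged and broad peaks were called with MACS. The file headers give MACS 2.1.2, a q cutoff of 0.01, no control sample, a uniform background and removal of duplicate fragments. The pileup deposited by the authors is the coverage signal over a peak. The −log10 q they deposited is relative to that background, and the deposited fold enrichment is a ratio to it. Here pileup was divided by the background, that is kept fragments times fragment length over an effective genome of 1870000000 bp. The depth sets the lowest level that could be called.

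Genes came from GENCODE mouse release 21 and sequences from RefSeq's GRCm38, both of the reference strain and not of CBA. Repeat content is the reference's soft-masking. Python 3.11.15, pandas 2.3.3 and scipy 1.17.1 were used, and region joining was tested on simulated data. The 3 input samples were not analysed here, and a few members and sequences that the rule below names are not reported here. Wilson intervals cover counting error only.

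The members, gene lists and comparisons were chosen with earlier results of these data known. Genes were named by a rule: the 10 gained and 10 lost promoter regions of highest −log10 q with under 50% soft-masked bases, the 6 highest and 6 lowest ratios among shared promoters of −log10 q at least 5 in both lists, marked members of the gene lists (all if 6 or fewer, otherwise the 3 highest per class), the 3 strongest gained and lost regions, the 5 longest regions, and Aldh1a3. Other genes were named after their values were seen. The alternatives varied joining, peak strength, list size, calling limit, repeats, chromosomes, fold, scaling and promoter window.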

Additional observations from a re-analysis of the deposited data

Results flagged for a closer look

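Chromosomes X and Y lay outside the comparison as reported and entered only 1 alternative setting. Chromosome X held 1137 H3K27Me3 peaks in the HFD-O304 list and 771 in the RD list, and chromosome Y held 205 and 137. On sequences other than chromosomes 1 to 19, X and Y, 418 peaks were called in HFD-O304 and 323 in RD. These values stand out because they come from data outside the reported comparison, and with 1 list per group the differences were not tested.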

How the results depend on the processing

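No paired analysis was possible because each list pools both replicates, and leaving 1 of them out was likewise not possible. More regions were gained than lost in 10 of the 10 settings that bear on region counts and more genes in 12 of the 13 that bear on gene counts, the exception being equal list size. The common lowest level is among these settings, and it removed only RD peaks, so it could not lower the gains. With −log10 q of at least 5 in both lists 2220 regions were gained, 1128 lost and 3659 shared, promoters held 14.3%, 6.47% and 4.97% of them, 305 genes were gained and 70 lost, the Jaccard index was 0.540 (0.439 as deposited), the median log2 ratio 0.20, and 96 regions were higher and 1 lower. With that limit for presence only, the values were 707, 271 and 3658 regions, 6.51%, 2.95% and 4.98% at promoters, 43 and 8 genes, a median of 0.20, 97 higher and 1 lower. At equal list size 4669 regions were gained, 9.62% of them at promoters, with 410 and 438 genes, an index of 0.480 and a median of 0.21. At a common lowest level 1343 were lost, promoters held 10.7%, 7.97% and 11.1%, 1143 and 94 genes were gained and lost, the index was 0.400 and the median 0.16. Without repeats 3344, 1206 and 3448 regions were gained, lost and shared, promoters held 23.4%, 22.8% and 39%, the index was 0.421, the median 0.19 and 49 were higher. With X and Y promoters held 11.9% of shared regions and the index was 0.442. A ratio limit of 5 to 4 gave 2212 higher and 50 lower, and 2-fold gave 4 and 0. Deposited fold enrichment gave a median of 0.15 and 130 higher, centring gave 0.00, 32 and 18, and pileup per fragment 0.19. A window of 500 bp gave 7.81%, 8.44% and 12% at promoters, and 2000 bp gave 10.9%, 11.5% and 14.1%. With 500 bp En2, Grb10, Myod1, Nkx6-1 and Zfp36l1 were no longer gained. Chosen after seeing the data, leaving out the dense stretches gave 8950 and 2848 regions and 701 and 247 genes, and peaks inside the window itself 772 and 262 genes. The causes were not tested.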
